A study of Mus musculus with 2 samples.

Results

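Cd163l1 (ENSMUSG00000025461) is 1 of 31053 features measured in 2 droplet 5′ gene expression libraries of splenic CD8 T cells, and was picked by its symbol. The gene was chosen with its levels in these libraries already known, so its levels are given as a description and no value was tested. The old recipient library held CD45.2+CD3e+CD8a+ cells sorted from spleen at 25 months of age, from wild-type C57BL/6J mice that were 24 months old when they received the transfer. The young donor library held CD45.1+CD3e+CD8a+ cells sorted from spleens of hosts of that age 1 month after transfer, derived from total CD8 T cells of wild-type C57BL/6J mice aged 3 months. Each group was 1 library, so age, CD45 allele, transfer and library cannot be told apart, and the labels do not say whether mice were pooled. Every interval below is an exact 95% interval that covers counting error only.

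Cd163l1 encodes SCART1, a membrane protein of the scavenger receptor cysteine-rich family, to which CD163, CD5 and CD6 also belong. In mice it is best known from gamma delta T cells, in particular those that make interleukin 17, and 5830411N06Rik, the gene of the related SCART2, is known from similar cells. Conventional CD8 T cells instead carry an alpha beta receptor, and their memory cells are known for the surface protein Ly6C (Ly6c2) and the chemokine CCL5. Gzmk, a granzyme gene, marks a population of CD8 T cells that accumulates with age.

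On mm10 (GRCm38), Cd163l1 lies on the plus strand of chromosome 7 from 140218267 to 140231145, with 7 annotated transcripts and up to 14 exons. 5830411N06Rik (ENSMUSG00000054672) follows on the same strand from 140247284 to 140300736. The 250 bases before a RefSeq start of each gene are shown because 5′ libraries read transcripts from their start and because both genes stood far apart between the libraries, as described below. The sequences are from RefSeq (build GRCm38.p6), 5′ to 3′ on the plus strand, at chr7:140218017-140218266 for Cd163l1 and at chr7:140247051-140247300 for the first of 3 starts listed for 5830411N06Rik, a window that includes the earlier gene start given above.
Cd163l1: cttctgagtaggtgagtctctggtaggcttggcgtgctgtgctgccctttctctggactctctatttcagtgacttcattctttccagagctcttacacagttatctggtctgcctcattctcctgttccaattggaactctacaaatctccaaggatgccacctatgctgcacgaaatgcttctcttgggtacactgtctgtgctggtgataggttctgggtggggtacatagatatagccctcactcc
5830411N06Rik: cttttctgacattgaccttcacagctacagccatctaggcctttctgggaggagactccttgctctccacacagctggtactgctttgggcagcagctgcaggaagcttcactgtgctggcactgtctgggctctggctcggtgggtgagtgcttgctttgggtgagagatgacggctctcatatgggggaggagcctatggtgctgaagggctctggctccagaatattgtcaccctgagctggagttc
Capitals would mark matches to 3 motifs searched on both strands, namely the T-box half-site GGTGTGA, the AP-1 site TGANTCA and the RUNX site TGTGGT. Neither window held a match, so both are in lower case throughout. The motifs occurred in 3.33%, 6.75% and 14.0% of 32851 windows of the same length, in the order given. The transcripts of both genes shared no stretch of 31 bases, of 3985 in Cd163l1 and 5712 in 5830411N06Rik, so exact 31-base matches could not be confused between them.

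The young donor library carried nearly all Cd163l1 transcripts. Among kept cells, 5 of 5366 old recipient cells had the gene (0.0932%, interval 0.0303 to 0.217), against 247 of 7489 young donor cells (3.30%, 2.91 to 3.73). Cells with at least 1 Cd163l1 UMI (unique molecular identifier, 1 per captured transcript) are called carriers here. The summed level was 0.129 CPM (0.0420 to 0.302) in the old recipient and 11.4 CPM (10.6 to 12.3) in the young donor, where CPM is UMIs per 1000000 UMIs of the same cells. This is a log2 ratio of -6.47 [-8.10, -5.24], or 88.6-fold more in the young donor (37.8 to 273.7). It was the lowest ratio of recipient over donor among 9482 genes with at least 200 UMIs in all, of which 0.432% were more than 2-fold lower in the recipient.

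The difference was also present at equal depth. Median UMIs per cell were 7030 in the old recipient and 7893 in the young donor. With every cell thinned to 3500 UMIs, 1 of 4893 recipient cells and 161 of 7052 donor cells had the gene (0.0204% and 2.28%). The libraries shared 105 cell barcodes, and no carrier in either library had a shared one. The sorted identity held in the carriers, since Cd8b1, the gene of the CD8 beta chain, was found in 5 of 5 recipient carriers and 247 of 247 donor carriers, and Cd4 in none.

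Many young donor carriers had several Cd163l1 UMIs, and no old recipient carrier did. All 5 recipient carriers had 1 UMI each. In the donor, 97 carriers had 1 UMI, 39 had 2, and 111 had 3 or more, up to 12 in a cell. The 111 cells with 3 or more UMIs held 505 of the 680 donor UMIs (74.3%). After thinning to 3500 UMIs, the variance over cells was 2.42 times the mean in the donor, which ranked 8 of 1337 genes of like level, whose median was 1.01. The genes above it were 3 Trav segments, the NK receptor genes Klra1 and Klra7, the cycling gene Top2a and the interferon gene Ifit1.

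**Figure D1:**
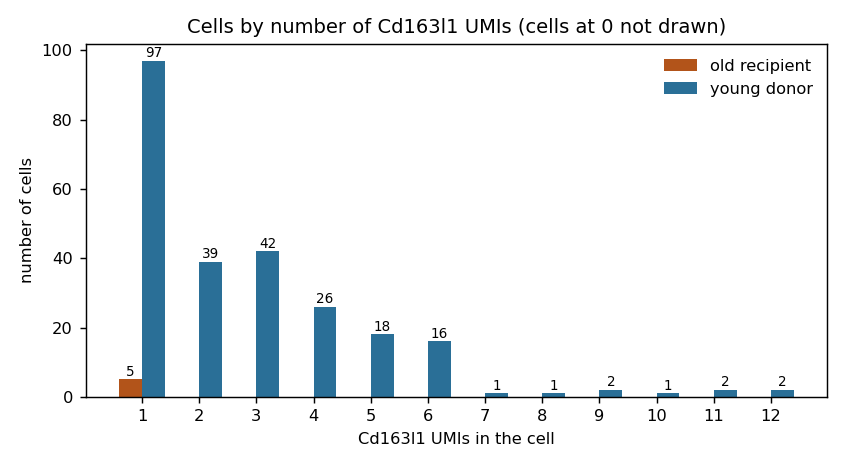
Number of cells (y axis) by number of Cd163l1 UMIs in the cell (x axis) in the old recipient and the young donor library, with cells at 0 not drawn. All 5 recipient carriers had 1 UMI, and 111 of 247 donor carriers had 3 or more.

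The difference between libraries extended to the adjacent paralog and not to Mtg1 or Paox. 5830411N06Rik had 11 UMIs in 6 old recipient cells and 244 UMIs in 156 young donor cells, or 0.284 CPM and 4.11 CPM, which gave a log2 ratio of -3.85 [-4.87, -2.99]. This was the next lowest of the 9482 genes after Cd163l1. Mtg1, a mitochondrial GTPase gene upstream, stood at 18.3 CPM in the recipient and 19.0 CPM in the donor (-0.06 [-0.19, 0.08]). Paox, the polyamine oxidase gene beside it, stood at 6.13 CPM and 5.74 CPM (0.09 [-0.15, 0.34]). The olfactory receptor gene Olfr524, the nearest gene upstream of Cd163l1, had 1 UMI in the recipient and 11 in the donor, and the other olfactory receptor genes drawn had at most 1 UMI in either library. The log2 ratio of Olfr524 was -2.84 [-8.27, -0.06], on the same side as those of both paralogs, but it rests on 1 recipient UMI. The counts were made with an unstated rule on strand, and Olfr524 is too low to compare closely.

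**Figure D2:**
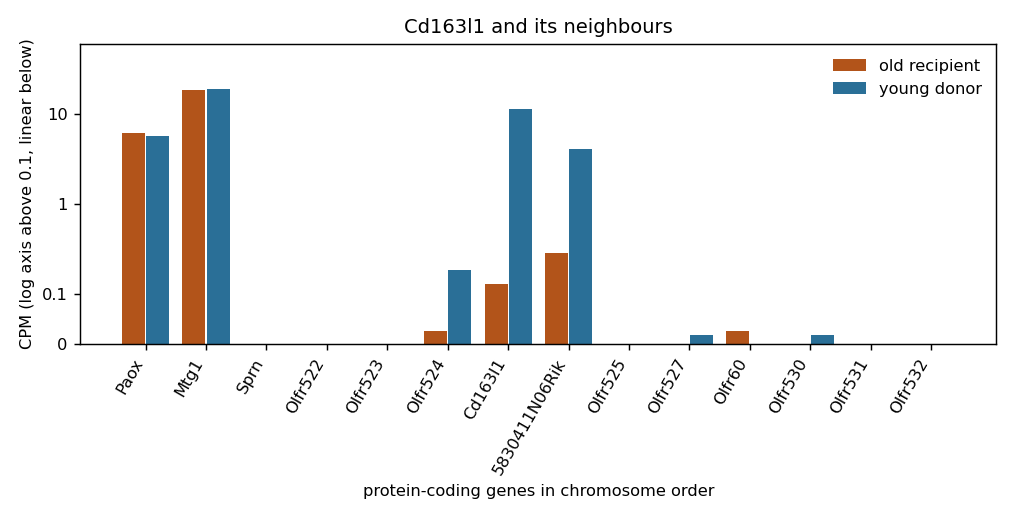
CPM (y axis, logarithmic above 0.1 and linear below) of protein-coding genes in their order along the chromosome (x axis) in the old recipient and the young donor library. Cd163l1 and 5830411N06Rik stood at 0.129 and 0.284 CPM in the recipient against 11.4 and 4.11 CPM in the donor, while Paox and Mtg1 were level.

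The paralogs were mostly detected in different cells of the same status. With 244 UMIs of 5830411N06Rik in 156 donor cells, capture was sparse, so cells without a UMI cannot be said to lack the transcript. In the donor, 14 of 247 carriers also had 5830411N06Rik (5.67%, 3.13 to 9.33), against 142 of 7242 other cells (1.96%, 1.65 to 2.31). Of the 156 donor cells with 5830411N06Rik, 151 had Ly6c2 and Ccl5 UMIs and no Gzmk UMI. Within that status, 14 of 239 carriers (5.86%, 3.24 to 9.63) and 137 of 4214 other cells (3.25%, 2.74 to 3.83) had 5830411N06Rik, and these intervals overlap. By Cd163l1 UMIs, it was found in 4.21% of cells with 1 and 2.63% of cells with 2. In cells with 3 or more it was found in 8.49% (3.96 to 15.5), an interval above that of the other cells. In the recipient none of 5 carriers had it, and 5 of its 6 cells had the same status.

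Carriers had transcripts of the alpha beta receptor, though the lineage of each single carrier was not tested. Trbv or Trbc transcripts, from the beta chain, were found in 5 of 5 recipient carriers and 247 of 247 donor carriers, against 99.7% of other donor cells. A Trbv segment itself was found in 5 of 5 recipient carriers and 241 of 247 donor carriers (97.6%, 94.8 to 99.1). Trac, the alpha constant gene, was found in 5 of 5 recipient carriers and 186 of 247 donor carriers (75.3%, 69.4 to 80.6), against 67.0% of other donor cells. Trdc, the delta constant gene, was found in none of the 5 recipient carriers and in 4 of 247 donor carriers (1.62%, 0.443 to 4.09), against 65 of 7242 other donor cells (0.897%, 0.693 to 1.14). Any gamma constant gene (Tcrg-C) was found in 6 of 247 donor carriers (2.43%), against 4.56% of other donor cells, and in 0 of 5 recipient carriers against 7.18% of other recipient cells. Within this family the donor carriers differed by gene, with Tcrg-C1 in 5 carriers (2.02%, 0.661 to 4.66) and 0.539% of other cells, but Tcrg-C4 in 0 of 247 carriers, which allows up to 1.21%, and 2.07% of other cells. Any gamma variable segment was found in 3.64% of donor carriers and 6.85% of other donor cells.

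Genes known from gamma delta cells that make interleukin 17 had no or few UMIs in the carriers. Sox13, a transcription factor gene of that lineage, Blk, a kinase gene, and Zbtb16, the gene of PLZF, had 0 UMIs in all carriers of both libraries and in all other cells too. Summed over 8 gamma delta markers, levels were 0 CPM in 5 recipient carriers against 19.8 CPM in other recipient cells, with all 8 markers at 0 in the carriers. In the donor they were 9.28 CPM in carriers against 12.1 CPM in other cells, with 5 and 3 markers at 0. Of 21 listed gamma delta and type 17 genes, none reached 50 CPM in donor carriers or other donor cells. Below that level the members went both ways, on few UMIs. Trdc stood at 5.10 CPM in donor carriers and 2.15 CPM in other donor cells (log2 ratio interval 0.21 to 2.14). Tcrg-C1 stood at 3.25 CPM and 0.803 CPM (0.62 to 3.17), and the gamma variable segment Tcrg-V6 at 2.32 CPM and 0.699 CPM (0.03 to 3.07). These intervals count UMIs of the same cell as separate, and the UMIs lay in 4 carriers for Trdc, 5 for Tcrg-C1 and 3 for Tcrg-V6. By share of cells, the intervals of carriers and other donor cells overlap for each of these genes. Tcrg-C2 (0.928 CPM and 5.34 CPM) and Ramp1 (0.928 CPM and 18.3 CPM) were lower in carriers, as was Tcrg-C4. Macrophage and monocyte markers, where the related gene Cd163 is known, summed to 0 CPM in recipient carriers and 6.03 CPM in other recipient cells, and to 2.32 CPM in donor carriers and 6.20 CPM in other donor cells, with Cd163 itself at 0 in all carriers.

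Carriers used many receptor segments. Each cell was given the Trbv and Trav segment with most UMIs. In the donor all 19 Trbv segments with at least 50 cells had carriers, in 1.72% to 6.97% of their cells with a median of 2.99%. Trbv16 had the highest share, 31 of 445 cells (6.97%, 4.78 to 9.74), and also the most carriers, 13.3% of those with a leading Trbv where it made up 6.16% of all such cells. Trbv5 (5.77%), Trbv12-2 (5.44%) and Trbv31 (4.64%) came next, and Trbv13-1 and Trbv29 were lowest at 1.72% each. The interval of Trbv16 overlaps those of Trbv5, Trbv12-2 and Trbv31, and lies above those of 8 segments, namely Trbv29, Trbv13-1, Trbv12-1, Trbv17, Trbv3, Trbv1, Trbv14 and Trbv19. Within cells with Ly6c2 and Ccl5 and without Gzmk, Trbv16 was again highest among segments with at least 50 cells, with 31 of 331 cells (9.37%, 6.45 to 13.0), over a range that began at 2.78% and had a median of 5.33%.

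**Figure D3:**
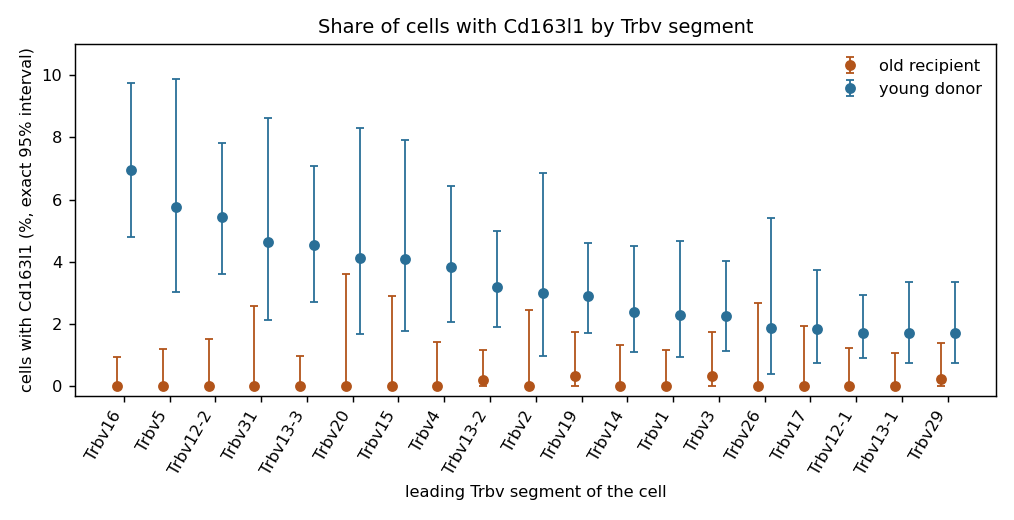
Share of cells with Cd163l1 (y axis, percent, with exact 95% intervals) by leading Trbv segment (x axis), for the old recipient and the young donor library. All 19 donor segments drawn had carriers, from 1.72% to 6.97%, and 4 recipient segments had 1 carrier each.

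Alpha segments gave a similar spread over the repertoire. Of 38 Trav segments with at least 50 donor cells, 34 had carriers. Trav13-2 had the highest share (7 of 69 cells, 10.1%, 4.18 to 19.8), before Trav7-5 (10 of 101 cells, 9.90%), Trav19 (7 of 100 cells, 7.0%), and Trav3-3 and Trav4-3 (6.33% each). Trav12-2 had the most carriers, 17 of 302 cells (5.63%). The 177 donor carriers with both segments assigned had 139 distinct pairs of Trbv and Trav, of which 108 were seen in 1 carrier, and no pair was seen in more than 3. Pairs of segments are not clonotypes, and the matched receptor libraries were not analysed here.

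The 5 recipient carriers had no segment in common either. Their Trbv segments were Trbv3, Trbv19, Trbv13-2 and Trbv29, with 1 cell unassigned, and their Trav segments were Trav12-2, Trav3n-3, Trav7-3, Trav8n-2 and Trav6-7-dv9. The cell with Trbv3 had 26 Ly6c2 and 2 Ccl5 UMIs, and the cell with Trbv19 had 35 and 40, and neither had Gzmm, S1pr5 or Gzma. The cell with Trbv13-2 had 20 Ly6c2, 105 Ccl5 and 3 S1pr5 UMIs, and the cell with Trbv29 had 18 Ly6c2 and 169 Ccl5 UMIs. The cell with no Trbv assigned stood apart with 302 Ccl5, 28 Gzma, 8 S1pr5, 7 Gzmm and 7 Klrg1 UMIs, and lay in the effector-memory-like cluster. Whether these single Cd163l1 UMIs came from free RNA was not tested.

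In both libraries the gene sat mainly in memory-type cells with Ly6c2 and Ccl5 and without Gzmk. All 5 recipient carriers and 239 of 247 donor carriers (96.8%) had this status. Among cells of this status the gene was found in 5 of 1757 recipient cells (0.285%, 0.0925 to 0.663) and in 239 of 4453 donor cells (5.37%, 4.72 to 6.07). Cells with Ccl5 and Gzmk and without Ly6c2 had none, in 0 of 920 recipient cells and 0 of 961 donor cells, which allows shares of up to 0.326% and 0.312%. Cells with none of these genes had no carrier either, in 0 of 1081 recipient cells and 0 of 641 donor cells, which allows up to 0.278% and 0.468%. Donor cells with Ly6c2, Ccl5 and Gzmk did hold the gene, in 4 of 273 cells (1.47%, 0.401 to 3.71). So did 3 of 257 donor cells with only Ccl5 of these genes (1.17%, 0.241 to 3.37). With only Ly6c2 it was 1 of 892 donor cells (0.112%). In the recipient the same statuses had no carrier, in 0 of 293, 0 of 596 and 0 of 704 cells. The median depth of cells with Ccl5 and Gzmk and without Ly6c2 was 4482 UMIs in the recipient and 4323 UMIs in the donor, and that of cells with none of these genes 7030 UMIs and 7436 UMIs. Cells with Ly6c2 and Ccl5 and without Gzmk were deeper, at 8120 UMIs and 8530 UMIs.

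**Figure D4:**
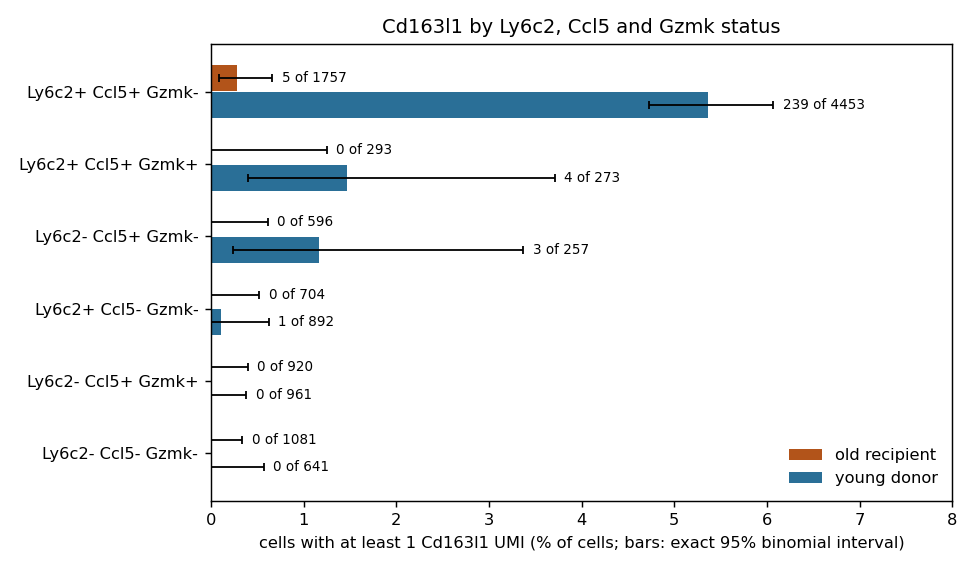
Share of cells with Cd163l1 (x axis, percent, with exact 95% intervals) by whether a cell had Ly6c2, Ccl5 and Gzmk UMIs (rows, statuses with at least 50 cells in both libraries), for the old recipient above the young donor. Carriers made up 0.285% of recipient and 5.37% of donor cells with Ly6c2 and Ccl5 and without Gzmk, and none of the cells with Ccl5 and Gzmk and without Ly6c2 or with none of these genes. They made up 1.47% of donor cells with Ly6c2, Ccl5 and Gzmk, 1.17% of those with only Ccl5 and 0.112% of those with only Ly6c2.

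Each status gene was shifted in donor carriers. Ly6c2 was found in 244 of 247 donor carriers (98.8%), with a lowest, median and highest count of 0, 18 and 61 UMIs, against 74.3% and counts of 0, 9 and 89 in other donor cells. Ccl5 was found in 246 of 247 carriers (99.6%), with counts of 0, 84 and 280, against 78.7% and counts of 0, 45 and 553. Gzmk was found in 4 carriers (1.62%, 0.443 to 4.09) against 17.1% of other donor cells (16.3 to 18.0). The counts of carriers and other cells overlapped for all 3 genes.

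The difference between the libraries was also present within cells of this status. Such cells made up 32.7% of recipient cells and 59.5% of donor cells. Within them Cd163l1 stood at 0.346 CPM (0.112 to 0.807) in the recipient and 16.8 CPM (15.6 to 18.2) in the donor, for a log2 ratio of -5.60 [-7.23, -4.37] or 48.6-fold. With the donor's share in each status, the recipient library would have held 106.3 carriers, and with the donor's share in each status with and without Gzmm it would have held 81.2, against the 5 found.

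Donor cells of this status held the gene more often where they also had Gzmm, Klrc1 or S1pr5. Gzmm encodes a granzyme of natural killer and memory T cells, and Klrc1 the inhibitory receptor NKG2A. Among these donor cells, 173 of 1847 with Gzmm (9.37%, 8.08 to 10.8) and 66 of 2606 without (2.53%, 1.96 to 3.21) had Cd163l1. With Klrc1 the shares were 15.1% of 531 cells and without it 4.05% of 3922. With S1pr5, the gene of a sphingosine 1-phosphate receptor for exit from tissue, they were 9.96% of 733 cells and without it 4.46% of 3720. Igfbp4, a naive cell gene here, went the other way, at 5 of 643 cells with it (0.778%, 0.253 to 1.81) and 6.14% of 3810 without it. In the recipient 1 of 358 cells with Gzmm (0.279%, 0.00707 to 1.55) and 4 of 1399 without (0.286%, 0.0780 to 0.730) had the gene, so a difference was not detectable there.

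Clusters made from both libraries together, without Cd163l1 among their genes, placed carriers in the same kind of cell. A cluster led by Gzmm, S1pr5 and Klra3 had 1 carrier of 234 recipient cells (0.427%) and 146 of 1349 donor cells (10.8%, 9.22 to 12.6). A marker set was raised in this cluster (mean log2 fold 0.83), but the full naming rule was not met and it was left unnamed. It held 59.1% of donor carriers, at 36.1 CPM. A cluster led by Lmna had 1 carrier of 119 recipient cells and 39 of 692 donor cells (5.64%, 4.04 to 7.62). A cluster led by Gpr15 and Ly6c2 had 2 of 371 recipient cells and 49 of 1426 donor cells (3.44%, 2.55 to 4.52). The interval of the first cluster in the donor lies above those of the other two, which overlap each other.

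Other clusters held few or none. The interferon-responding-like cluster, led by Ifit1 and Isg15, had 5 of 172 donor cells (2.91%, 0.951 to 6.65), at 12.8 CPM. Both naive-like clusters had none, in 0 of 1376 and 0 of 526 recipient cells and in 0 of 583 and 0 of 555 donor cells. The larger age-associated-like cluster, led by Gzmk and Tigit, had 0 of 879 recipient cells and 0 of 855 donor cells, which allows up to 0.341% and 0.351%. The NK-like cluster, led by Fcer1g and Klra7, had 0 of 207 recipient cells and 2 of 102 donor cells. The cluster led by S100a4 and holding gamma chain transcripts (Tcrg-C2, Tcrg-C4) had 0 of 232 recipient cells and 0 of 257 donor cells.

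In the young donor, few genes accompanied Cd163l1 across all cells. Of 2192 genes with at least 50 CPM in carriers or other donor cells, 5 (0.228%) were more than 2-fold higher in carriers and 17 (0.776%) more than 2-fold lower, with 5 CPM added to both levels. Gzmm led the higher genes, at 331.6 CPM in carriers and 92.5 CPM in other donor cells, a log2 fold of 1.79, and 71.3% of carriers had it against 26.5% of other cells. Klrc1 followed at 73.3 CPM against 26.9 CPM (1.30), S1pr5 at 52.9 CPM against 19.2 CPM (1.26), and Ccr2, a chemokine receptor gene, at 89.98 CPM against 38.4 CPM (1.13). Klrc1, S1pr5 and Ccr2 reached 50 CPM only in carriers, where they are high. Fcgrt, the gene of the neonatal Fc receptor, was the last past 2-fold, at 206.9 CPM against 97.9 CPM (1.04). S100a6, a calcium-binding protein gene, lay just inside 2-fold at 1197 CPM against 606.3 CPM (0.98), and Lrrk1, G0s2, Tmem37, Itm2a, 1700025G04Rik and Txndc5 had folds of 0.97 to 0.86. Of the latter genes, all but Txndc5 also reached 50 CPM only in carriers.

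**Figure D5:**
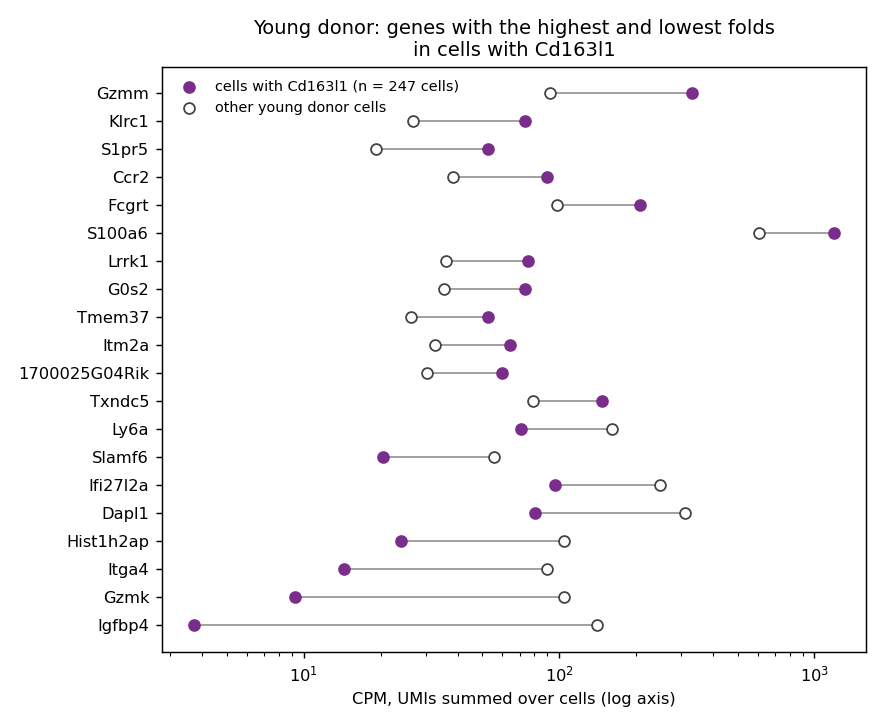
CPM (x axis, logarithmic) in young donor cells with Cd163l1 (filled) and in other young donor cells (open) for the genes with the 12 highest and 8 lowest folds, named by a rule. Gzmm stood at 331.6 CPM in carriers against 92.5 CPM in other cells, and Igfbp4 at 3.71 CPM against 140.2 CPM.

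Igfbp4, Gzmk and Itga4 had the lowest folds in donor carriers. Igfbp4, the gene of an insulin-like growth factor binding protein, stood at 3.71 CPM in carriers and 140.2 CPM in other cells (log2 fold -4.06), and was found in 6 of 247 carriers. Gzmk stood at 9.28 CPM against 104.9 CPM (-2.95), and Itga4, the integrin alpha 4 gene, at 14.4 CPM against 89.7 CPM (-2.29). Hist1h2ap, a replication histone gene, stood at 24.1 CPM against 104.6 CPM (-1.91), and Dapl1 at 80.2 CPM against 312.5 CPM (-1.90). Ifi27l2a (-1.33), Slamf6 (-1.25) and Ly6a (-1.13) were lower as well.

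Part of this pattern held within donor cells with Ly6c2 and Ccl5 and without Gzmk. There, 4 of 2137 genes (0.187%) were more than 2-fold higher in 239 carriers than in 4214 other cells and 6 (0.281%) more than 2-fold lower. The higher genes were Klrc1 (73.9 CPM against 22.7 CPM, log2 fold 1.51), Gzmm (332.7 CPM against 130.2 CPM, 1.32), Klrk1, the gene of the activating receptor NKG2D (62.9 CPM against 24.8 CPM, 1.19), and Ccr2 (87.9 CPM against 37.6 CPM, 1.12). Klrc1, Klrk1 and Ccr2 reached 50 CPM only in carriers there. S1pr5 and Fcgrt no longer passed 2-fold, at 0.86 and 0.64. Igfbp4 (2.88 CPM against 51.97 CPM, -2.85), Dapl1 (78.3 CPM against 275.1 CPM, -1.75) and Hist1h2ap (24.0 CPM against 79.6 CPM, -1.54) remained the lowest named genes, while Itga4 (10.1 CPM against 24.6 CPM, -0.97), Ly6a (-0.87), Slamf6 (-0.65) and Ifi27l2a (-0.62) were within 2-fold, and Itga4 and Slamf6 were there below the level filter.

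Gzmm, Klrc1, Igfbp4 and Dapl1 already differed between donor cells of that status with 0 and with 1 Cd163l1 UMI. Gzmm stood at 130.2 CPM in cells with 0 Cd163l1 UMIs, 267.6 CPM in 95 cells with 1, 250.3 CPM in 38 cells with 2 and 414.6 CPM in 106 cells with 3 or more. Klrc1 was found in 10.7%, 27.4%, 47.4% and 34.0% of these cells, in the same order. Igfbp4 was found in 15.1%, 3.16%, 0% and 1.89%, and Dapl1 in 54.4%, 26.3%, 13.2% and 17%. For Klrc1 and Dapl1 the intervals of the 3 groups of carriers overlapped, and each lay on the same side of the cells with 0 UMIs. S1pr5 was found in 15.7% (14.6 to 16.8) of cells with 0 UMIs and 24.2% (16.0 to 34.1) of cells with 1, and these intervals overlap. Median UMIs per cell in these bins were 8534, 8255, 8410 and 8966.

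Read by gene group, memory genes were on the higher side in donor carriers. Of 17 listed memory genes 15 passed the level filter, and 1, Gzmm, was more than 2-fold higher, with a median log2 fold of 0.52 where the median over all genes was 0.01. Over all 2192 genes tested, 0.228% were more than 2-fold higher and 0.776% lower, and the counts of each list below stand beside these shares. Samd3 had the next largest fold, at 87.2 CPM in carriers and 50.1 CPM in other cells (0.74). Among the others Il2rb, the interleukin 2 receptor beta gene, stood at 524.1 CPM in carriers and 338.7 CPM in other cells (0.62), and Cd44 at 81.6 CPM and 50.4 CPM (0.64). Within cells with Ly6c2 and Ccl5 and without Gzmk the median of the memory genes was 0.30, where that over all genes was 0.03. The folds there were 0.42 for Samd3, 0.29 for Il2rb and 0.42 for Cd44. Of 14 effector genes 5 passed the filter, among them S1pr5 and Ccr2, which were more than 2-fold higher and passed only through the carriers, so their number is shaped by the filter. Prf1, the perforin gene, passed at 74.2 CPM in carriers and 65.7 CPM in other cells (0.16). The effector genes below the filter went both ways. Klrg1 stood at 0 CPM in carriers and 7.0 CPM in other cells, Cx3cr1 at 0.464 CPM and 7.96 CPM, and Gzma at 1.39 CPM and 11.4 CPM, but Lgals3, a galectin gene, at 31.1 CPM and 12.8 CPM and Fasl, the Fas ligand gene, at 24.6 CPM and 13.7 CPM. Within the Ly6c2 and Ccl5 status the folds of Gzma (-0.10) and Klrg1 (-0.26) were small, and that of Lgals3 was 1.61.

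Of 15 measured NK receptor genes 3 passed the filter, Klrc1 and Klrk1 only through the carriers, and Klrc1 was more than 2-fold higher, while Klrk1 (60.8 CPM against 31.7 CPM, 0.84) and Klrd1, the CD94 gene (239.3 CPM against 201.5 CPM, 0.24), were not. Of the Ly49 genes, none of which passed, Klra1 stood at 0.464 CPM against 10.2 CPM and Klra9 at 0 CPM against 2.64 CPM, while Klra3 (19.5 CPM against 16.5 CPM), Klra6 (6.49 CPM against 6.34 CPM) and Klra7 (10.2 CPM against 11.5 CPM) were nearly level. Klre1, another NK receptor gene below the filter, stood at 39.9 CPM against 22.2 CPM (0.72). Of 12 naive genes 10 passed and 2, Igfbp4 and Dapl1, were more than 2-fold lower, where 0.776% of all genes tested were. The median of the naive genes was -0.06, near the 0.01 over all genes. Il7r, the interleukin 7 receptor gene, was on the higher side, at 570.0 CPM against 415.4 CPM (0.45), and Ccr7 on the lower, at 177.2 CPM against 253.9 CPM (-0.51). Of 14 Gzmk-programme genes 2 passed, Gzmk and Ccl4 (56.1 CPM against 62.0 CPM, -0.13), and Lag3, an inhibitory receptor gene, had 0 UMIs in carriers against 12.7 CPM. Also below the filter, Pdcd1 (-1.32), Tigit (-1.22) and Tox (-0.75) were lower, but Cd160, another inhibitory receptor gene, was higher (43.1 CPM against 31.2 CPM, 0.41). Within the Ly6c2 and Ccl5 status without Gzmk these folds were small, at -0.26 for Lag3, 0.10 for Pdcd1, 0.14 for Tigit, 0.17 for Tox and 0.34 for Cd160. Residency genes had 2 members past the filter and none past 2-fold, with Cxcr6 at 77.0 CPM against 50.5 CPM (0.56) and Cd69 at 125.2 CPM against 109.5 CPM (0.19). Of 17 other genes of the scavenger receptor cysteine-rich family 3 passed and none was past 2-fold, with Cd5 at 88.6 CPM against 117.8 CPM (-0.39), Lgals3bp at 81.6 CPM against 62.6 CPM (0.36) and Cd6 at 94.2 CPM against 107.5 CPM (-0.18). All 11 alpha beta CD8 genes passed the filter and none was past 2-fold, Cd5 and Cd8a (412.3 CPM against 487.7 CPM, -0.24) having the largest folds.

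The genes most like Cd163l1 over 7489 donor cells, by Pearson's r of logged UMIs per 10000 among 10800 genes, were Gzmm (0.21), Dsg2 (0.20), Stc2 (0.18), S100a6 (0.15), Fcgrt (0.15), Rln3 (0.14), Dlg5 (0.13) and Ly6c2 (0.12). These correlations are weak, and cells of 1 library share its depth and source. They include 4 sparse genes under the 50 CPM filter. Dsg2, the gene of the desmosomal cadherin desmoglein 2, was found in 23 of 247 carriers (9.31%, 6.00 to 13.6) and 35 of 7242 other cells (0.483%, 0.337 to 0.671). Stc2, the gene of the secreted glycoprotein stanniocalcin 2, was found in 16.6% (12.2 to 21.8) of carriers and 1.57% (1.30 to 1.89) of other cells. Rln3, a relaxin gene, was found in 8.91% and 0.773%, and Dlg5, a scaffold protein gene, in 13.4% and 2.36%.

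In the old recipient the 5 carriers held 49791 UMIs in all, so 1 UMI was 20.1 CPM and many folds rest on a few UMIs in 1 to 3 cells. Of 2793 genes tested, 462 (16.5%) were more than 2-fold higher in carriers and 255 (9.13%) lower, and within the Ly6c2 and Ccl5 status 472 (17.3%) and 198 (7.24%) of 2735. S1pr5 had the highest fold, with 11 UMIs in 2 carriers (220.9 CPM against 11.9 CPM), and Gzma the next, with 28 UMIs in 1 carrier (562.4 CPM against 49.97 CPM). Asns, Trio, Car12, Klra3, Fkbpl, Ticam1, Klrg1, Gmeb2, 1700025G04Rik and Bicd2 followed, each with 3 to 7 UMIs in 1 to 3 carriers. All the higher genes named here reached 50 CPM only in carriers, where 3 UMIs are already 60.3 CPM. The number of higher genes is therefore shaped by the filter. Gzmm, which led in the donor, had 7 UMIs in 1 of 5 carriers, against 9.77% of other recipient cells. Igfbp4 and Gzmk had 0 UMIs in all 5 carriers, against 338.9 CPM and 184.5 CPM in other recipient cells. The exact upper limits of the log2 ratio were -2.19 for Igfbp4 and -1.32 for Gzmk, for counting error only. Igfbp4 was found in 44.0% and Gzmk in 22.9% of other recipient cells, so 5 cells without either are little to go on. The next lowest folds, of Dek, Sra1, Ppp1cc, Adrm1, Sssca1 and Ccdc124, also belonged to genes with 0 UMIs in all 5 carriers. The genes most like Cd163l1 there were Plcd1 (r = 0.13), Plekha8, 9130604C24Rik, Slc22a17, Pkd1l3, Mpv17l, B230317F23Rik and 2610037D02Rik, each found in 0.503% to 0.764% of 5366 cells. They lay near the 0.5% filter and rest on 5 carriers with 1 UMI each, so they are not compared with those of the donor.

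Several genes that accompanied Cd163l1 in the donor also differed between the libraries as a whole. Gzmm stood at 36.8 CPM in the recipient and 101.2 CPM in the donor (log2 ratio -1.46), and Fcgrt at 29.6 CPM and 101.9 CPM (-1.78). Igfbp4 stood at 338.5 CPM and 135.2 CPM (1.32), and Gzmk at 184.3 CPM and 101.5 CPM (0.86). Klrc1 did not share this order, at 37.4 CPM in the recipient and 28.5 CPM in the donor (0.39). The rarer genes Dsg2 (1 UMI in the recipient and 66 in the donor), Dlg5 (13 and 230 UMIs, -3.53 [-4.46, -2.72]) and Stc2 (32 and 178 UMIs, -1.86 [-2.45, -1.31]) were lower in the recipient too.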

How the data were processed

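The authors deposited whole-number UMI counts of each gene in each barcode, with no normalization. The submitters' processing notes name Cell Ranger, Seurat and mm10, and version 3.0.2 of the counting software stands in the matrices, per the file headers. The gene annotation and the use of strand are not given in the sources used here. A barcode was kept with at least 500 genes and at most 10% mitochondrial UMIs, which removed 555 in the old recipient and 587 in the young donor. After this 253 and 512 doublets were removed by a score against 2 simulated doublets per cell over 1500 genes, at 0.8% per 1000 barcodes. Kept cells held 38695338 and 59415723 UMIs. The members, lists, comparisons and named genes were chosen with earlier results of these data known.

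UMIs were summed over cells and divided by their total (CPM). Cells are not replicates and each group had 1 library, so there was no test; CPM intervals are exact Poisson, shares exact binomial (Clopper-Pearson) and ratios exact for 2 Poisson sums, all at 95%. A count of 0 allows up to 3 counts. Folds between carriers and other cells added 5 CPM, for genes with at least 50 CPM in either, and were called past 2-fold. Named were the 12 highest and 8 lowest folds found in at least 10% of cells, the 8 most alike genes found in at least 0.5% of cells, the 2 largest folds of each list in the young donor, and the 4 highest segments; other list members, such as Cd44, Il7r, Lag3 and Lgals3, were chosen after their values were seen. Cells were clustered with 2000 variable genes, 30 components, 15 neighbours and Leiden resolution 1, without Cd163l1, into 16 clusters, 5 of them unnamed; clusters are called like a class from marker genes, a rebuilt name that may differ from that of the study. Python 3.11.15, scipy 1.17.1, leidenalg 0.10.2 and edgeR 4.0.16 (TMM factors only) were used. The procedure was tested on simulated data, namely Poisson sums without added variation between cells. That test cannot show how UMIs clumped in few cells affect the folds. The values of 1 measured gene are not reported here. Alternatives were the filters, doublets, shared barcodes, thinning, carrier and status minimums, scaling, leading Trbv cells, the added CPM and the level filter.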

Additional observations from a re-analysis of the deposited data

Results flagged for a closer look

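Barcodes removed by the filters also held Cd163l1. In the young donor 13 of 1099 removed barcodes had the gene (1.18%, 0.631 to 2.01), with 28 UMIs. This is above the 0.273% that a count of 0 allows and below the 3.30% of kept donor cells. Of these barcodes, 8 were removed for few genes or a high mitochondrial share and 5 as doublets. In the old recipient 2 of 808 removed barcodes had it (0.248%), with 3 UMIs.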

How the results depend on the processing

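The log2 ratio of recipient over donor stayed negative in 8 alternatives, between -6.54 and -5.60. Of 87 values of 13 results under alternatives, 75 stayed within the main value's 95% interval or, for numbers of genes, within 1.5 times the main number, 12 moved and none changed sign. The share of recipient cells with Cd163l1 was 0.0204% with cells thinned to 3500 UMIs, 0.0187% at 1000 UMIs, 0% with at least 2 UMIs required, and 0.285% within cells with Ly6c2 and Ccl5 and without Gzmk, a setting chosen after the data were seen. The share of donor cells was 2.28%, 0.908%, 2.00% and 5.37% under the same settings. These settings lower depth, raise the minimum or change the cells counted by construction. With at least 2 UMIs required, 100% of donor carriers had Ccl5, and the recipient had no carrier left, so its other values could not be recomputed. The number of genes past 2-fold was 3120 in the recipient, against 717, and 73 in the donor, against 22, with genes of at least 10 CPM tested, a filter that lets in genes of few UMIs. It was 10 in the donor within the Ly6c2 and Ccl5 status. No paired analysis was possible because each group had 1 library. With 5 carriers in the recipient, 1 UMI each, the intervals of recipient carriers' shares are wide, from 0 to 52.2% for Gzmk and from 47.8% to 100% for Ly6c2 and Ccl5. PCR and sampling of mice add error that no interval here covers.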

Other observations

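Besides the pair of SCART genes, the genes with the lowest ratio of recipient over donor among 9482 genes with at least 200 UMIs were Dlg5, Fn3k, a fructosamine kinase gene, Ctse, the gene of cathepsin E, and Itpripl2. Recipient cells had 25 Fn3k UMIs and donor cells 257 (log2 ratio -2.74 [-3.40, -2.15]), and Fn3k was found in 9.72% (6.33 to 14.1) of donor cells with Cd163l1 and 2.94% (2.56 to 3.36) of other donor cells. Itpripl2 had 36 and 234 UMIs (-2.08 [-2.63, -1.57]) and was found in 6.48% (3.75 to 10.3) and 2.79% (2.42 to 3.20). Ctse had 709 and 4843 UMIs (-2.15 [-2.27, -2.04]) and was found in 50.2% (43.8 to 56.6) and 45.7% (44.5 to 46.9), so its share in cells with Cd163l1 was close to that in the others. These genes were selected on the same libraries, and none of these values was tested.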
